A study of Mus musculus with 10 samples.

Results

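The E2F and retinoblastoma family was described in muscle stem cells (MuSCs) through 10 genes chosen by name: the transcription factors E2f1, E2f3, E2f4, E2f5, E2f6, E2f7 and E2f8 and the pocket protein genes Rb1, Rbl1 and Rbl2. They are 10 of the 24608 gene symbols in the count table. The study compared MuSCs of control mice (Trpm7+/+; Pax7CreERT2/+; Rosa26YFP) with those of Trpm7 cKO mice (Trpm7 flox/flox; Pax7CreERT2/+; Rosa26YFP), adults on a C57BL6 background, in 5 libraries per genotype. Both genotypes carried the tamoxifen-inducible Cre expressed from Pax7, a gene of the muscle stem cell lineage, and the YFP reporter, and both received tamoxifen. Each library came from 3000 sorted YFP-positive cells taken 3 days after muscle injury with cardiotoxin (CTX), and the labels do not say whether each library is 1 mouse. Trpm7 encodes an ion channel with a kinase domain that passes Mg2+. The library names of Trpm7 cKO replicates 4 and 5 share a number whose meaning is not given, so these libraries may not be independent, and the p-values measure the spread between these libraries.

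E2F proteins bind DNA as dimers with a DP partner and switch the genes of S phase on or off. In a resting cell, the pocket proteins, encoded by Rb1, Rbl1 and Rbl2, hold the E2Fs at these genes with repressor complexes, and phosphorylation by cyclin-dependent kinases in G1 releases them. E2f1, E2f2 and E2f3 are known as activators, E2f4 and E2f5 as factors that act with Rbl1 and Rbl2 in resting cells, E2f6 as a repressor that does not bind pocket proteins, and E2f7 and E2f8 as repressors that bind without a DP partner and are made in S phase. MuSCs rest outside the cell cycle until injury and then divide.

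Of the 10 genes, 4 fell in Trpm7 cKO MuSCs: E2f8, E2f4, E2f7 and Rbl1. None rose, E2f1, E2f3, E2f5, E2f6 and Rb1 did not pass the test, and Rbl2 had too few counts to be tested. Counts were scaled by edgeR's TMM method and are given as normalized CPM (counts scaled to library size), and 7753 genes were tested by edgeR's quasi-likelihood method, with Benjamini-Hochberg adjustment over all of them, with a threshold of 0.05. The 4 genes that fell are 44.4% of the 9 tested, while 24.1% of all tested genes were lower and 24.6% were higher at that threshold. Of the 4, E2f7 passed the filter on low counts through its control libraries. With a log2 fold change (log2FC, Trpm7 cKO over control, given with its standard error, SE) below -1.5 as well, 2 of the 9 genes (E2f8 and E2f4) remained, where 3.53% of all tested genes were called lower and 8.49% were called higher beyond 1.5. The normalized counts of the same 2 genes did not overlap between the genotypes, which held for 17.9% of all tested genes in the lower and 16.6% in the higher direction. The median log2FC of the 9 genes was -0.41, with 8 below 0, beside a median of -0.01 over all tested genes. In bulk libraries, fewer cells that express a gene and less of its RNA per cell cannot be told apart.

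Control libraries held 914361 to 1097709 counts and Trpm7 cKO libraries 205986 to 581121 (p = 0.00794 in a two-sided exact permutation test, the lowest value that 5 against 5 can give), and depth cannot be told apart from genotype. Trpm7 had 66 to 84 counts in control and 10 to 55 in Trpm7 cKO libraries (log2FC -0.09, SE 0.20, adjusted p = 0.723, edgeR), and reads of its 3′ end do not show whether the floxed exon was removed. All 18 muscle stem cell markers were detected, with summed levels of 4667 to 5383 normalized CPM in control and 3141 to 5006 in Trpm7 cKO libraries (two-sided exact permutation p = 0.0556). Of the 17 that were tested, 5 fell (29.4%) and 8 rose (47.1%), beside 24.1% and 24.6% of all tested genes.

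Markers of other cells moved with the genotype. The 25 leukocyte markers summed to 406 to 686 normalized CPM in control and 1572 to 6893 in Trpm7 cKO libraries (two-sided exact permutation p = 0.00794), and all 21 that were tested rose. The 10 endothelial markers summed to 7.51 to 66.0 and 136 to 690 (two-sided exact permutation p = 0.00794), the erythroid markers to 1.99 to 178 and 146 to 3274 (p = 0.0159 in the same exact test), and the 11 fibroadipogenic progenitor markers to 2855 to 4734 and 3500 to 6336 (p = 0.0556 in the same exact test). All 3 tested endothelial and all 3 tested erythroid markers rose, as did 6 of the 8 tested progenitor markers, of which 1 fell. Of all tested genes, 24.6% rose and 24.1% fell. No marker of these lists that is in the table was at 0 in every library, and the part of the endothelial, erythroid and progenitor RNA in the family's values was not tested.

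The promoters of the genes that fell are printed here because E2F factors are known to regulate several genes of their own family. The sequences are the windows around RefSeq start sites of GRCm38.p6, on the strand of the gene. The letters TTTCCCGC, TTTCGCGC, TTTGCCGC and TTTGGCGC, forms of the E2F site, were searched on both strands, as was TTTGAA, the cell cycle homology region (CHR) element, and matches to either are in capitals. E2f8 is at chr7:48881547-48881846 on the minus strand, E2f7 at chr10:110745189-110745488 on the plus strand and Rbl1 at chr2:157204485-157204784 on the minus strand. E2f2, a further activator that fell, is at chr4:136172024-136172323 on the plus strand.
E2f8: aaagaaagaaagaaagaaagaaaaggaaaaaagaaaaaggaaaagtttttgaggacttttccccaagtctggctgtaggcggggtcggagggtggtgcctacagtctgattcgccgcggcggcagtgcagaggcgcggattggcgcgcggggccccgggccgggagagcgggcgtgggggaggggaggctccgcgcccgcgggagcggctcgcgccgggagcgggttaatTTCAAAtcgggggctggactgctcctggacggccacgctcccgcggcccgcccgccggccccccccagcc
E2f7: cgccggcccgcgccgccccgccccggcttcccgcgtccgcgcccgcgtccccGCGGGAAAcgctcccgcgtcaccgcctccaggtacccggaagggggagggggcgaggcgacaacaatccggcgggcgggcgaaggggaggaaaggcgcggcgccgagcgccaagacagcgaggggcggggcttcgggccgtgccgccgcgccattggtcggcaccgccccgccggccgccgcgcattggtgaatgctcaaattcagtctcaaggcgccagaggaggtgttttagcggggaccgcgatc
Rbl1: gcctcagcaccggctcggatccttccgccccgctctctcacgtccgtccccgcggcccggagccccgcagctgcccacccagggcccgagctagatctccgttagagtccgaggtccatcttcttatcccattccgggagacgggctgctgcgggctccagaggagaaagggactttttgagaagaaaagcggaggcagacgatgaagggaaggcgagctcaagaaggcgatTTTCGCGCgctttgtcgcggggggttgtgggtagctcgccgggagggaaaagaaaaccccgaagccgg
E2f2: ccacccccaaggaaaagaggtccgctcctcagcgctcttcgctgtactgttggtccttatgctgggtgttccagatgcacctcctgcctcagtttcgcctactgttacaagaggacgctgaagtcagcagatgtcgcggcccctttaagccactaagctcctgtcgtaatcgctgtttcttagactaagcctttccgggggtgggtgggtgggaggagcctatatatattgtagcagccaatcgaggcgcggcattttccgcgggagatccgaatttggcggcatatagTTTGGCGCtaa
The E2F letters began at position -198 from the start site in E2f7 (as GCGGGAAA, the reverse strand), at -18 in Rbl1 and at 39 in E2f2. They also stood at -11 in E2f3, which did not pass the test. E2f2 and E2f3 each had a further window, which held none of the E2F letters. The E2f8 window held none of these letters, and its capitals mark the CHR letters on the reverse strand at -20. The 8 promoters found for the 10 family genes came from 7 of them, called or not, and leave out E2f2. Of these 8, 3 (37.5%) held the E2F letters, against 2.26% of 32851 promoters. The CHR letters stood in 37.5% of the 8 and 17.9% of all. A match is a description of the letters only. E2f4, E2f5 and Rb1 had no entry in the promoter table.

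**Figure D1:**
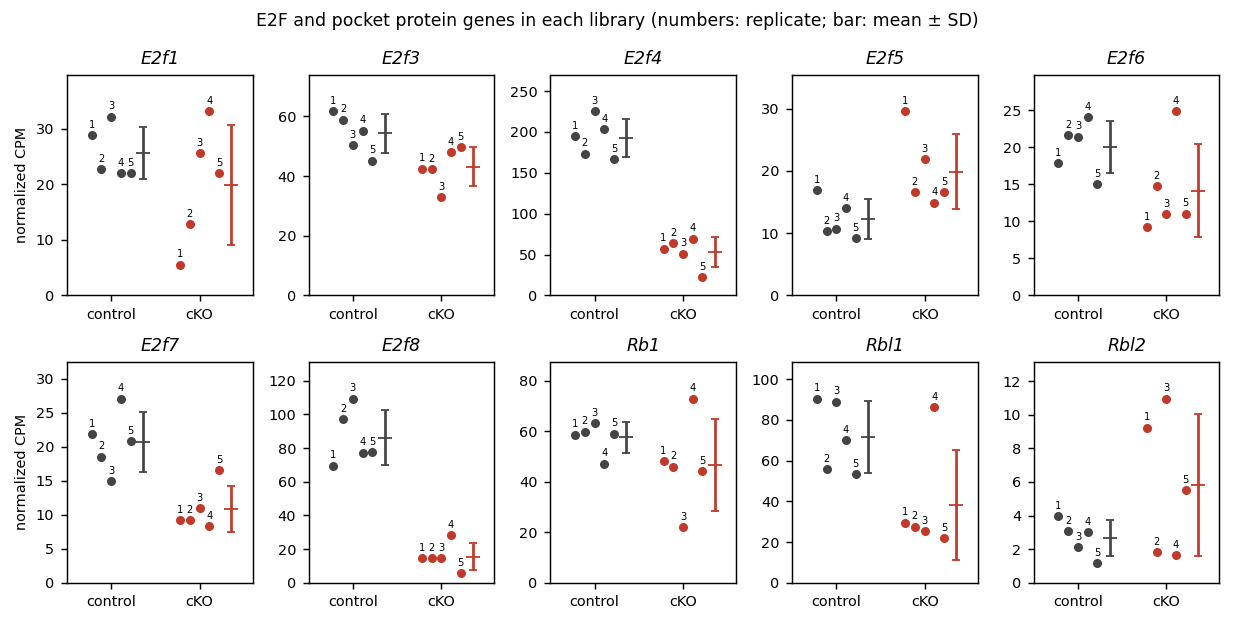
Normalized CPM of the 10 family genes (vertical axes, each from 0) in the 5 control and 5 Trpm7 cKO libraries, with each point 1 library numbered by its replicate and the bar the mean ± SD. E2f4 and E2f8 are separated between the genotypes, and Trpm7 cKO replicate 4 stands at 86.2 CPM for Rbl1, among the control libraries.

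Among the repressors without a DP partner, E2f8 showed the largest fold of the 9 tested genes. E2f8, on chromosome 7 of GRCm38 from 48866429 to 48881596, had 69.6, 97.1, 109, 77.3 and 77.6 normalized CPM in control replicates 1 to 5, from 67 to 102 counts. In Trpm7 cKO replicates 1 to 5, E2f8 had 14.8, 14.7, 14.6, 28.2 and 5.52 normalized CPM, from 1 to 17 counts. Every Trpm7 cKO library was below every control library, with replicate 4 the highest of the 5. The means of E2f8 were 86.2 ± 16.5 and 15.6 ± 8.09 CPM (SD, n = 5 each), a 5.54-fold lower level and a log2FC of -2.29 (SE 0.26, Benjamini-Hochberg adjusted p = 6.77e-07, edgeR quasi-likelihood test). Of the last 500 bases of the E2f8 transcript, 9.4% lie in stretches that occur in many other transcripts, so that part of its reads could be shared.

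E2f7, on chromosome 10 from 110745439 to 110787384, acts beside E2f8 and moved in the same direction. E2f7 had 21.9, 18.6, 15.0, 27.1 and 20.8 normalized CPM in control and 9.24, 9.20, 11.0, 8.28 and 16.6 in Trpm7 cKO replicates 1 to 5. The genotypes overlapped through Trpm7 cKO replicate 5, whose value rests on 3 counts, and control replicate 3. The log2FC of E2f7 was -1.05 (SE 0.31, adjusted p = 0.0082, edgeR), and its counts were low, from 14 to 27 in control and from 3 to 5 in Trpm7 cKO libraries. E2f7 passed the filter on low counts through the control libraries, where it was higher, so the filter left little room for a higher call.

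E2f4 and E2f5, the pair that partners Rbl1 and Rbl2, had fold changes of opposite sign, and E2f4 alone passed the test. E2f4, on chromosome 8 from 105297663 to 105305370, had 195, 174, 225, 204 and 167 normalized CPM in control replicates 1 to 5. In Trpm7 cKO replicates 1 to 5, E2f4 had 57.3, 64.4, 51.2, 69.6 and 22.1 normalized CPM, from 4 to 42 counts. No library of one genotype reached the other, and replicate 5, the smallest library, was the lowest. The log2FC of E2f4 was -1.76 (SE 0.19), a 3.64-fold lower level and the smallest adjusted p of the family (3.79e-07, edgeR quasi-likelihood test with Benjamini-Hochberg adjustment). E2f5, on chromosome 3 from 14578641 to 14606309, was the only gene of the 9 with a fold change above 0. E2f5 had 16.9, 10.3, 10.7, 14.1 and 9.26 normalized CPM in control and 29.6, 16.6, 21.9, 14.9 and 16.6 in Trpm7 cKO libraries, which overlapped through control replicate 1. Its log2FC of 0.69 (SE 0.30, adjusted p = 0.0647, edgeR) did not pass, and its 3′ end overlaps 1810022K09Rik on the opposite strand, whose reads cannot be told apart where strand was not counted. E2f5 passed, higher in Trpm7 cKO, with total counts alone (log2FC 0.80, adjusted p = 0.0357) or scaled on the muscle stem cell markers (0.91, adjusted p = 0.0236) in edgeR's test. It had passed the filter on low counts through the Trpm7 cKO libraries, where it was higher, so the filter left little room for a lower call.

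The activators E2f1 and E2f3 did not pass the test. E2f1, on chromosome 2 from 154559407 to 154569892, had 28.8, 22.7, 32.2, 22.1 and 22.0 normalized CPM in control replicates 1 to 5. In Trpm7 cKO replicates 1 to 5, E2f1 had 5.54, 12.9, 25.6, 33.1 and 22.1 normalized CPM, from 3 to 20 counts. These libraries spanned the control range, with replicates 1 and 2 below it and replicate 4 above it. The log2FC of E2f1 was -0.41 (SE 0.33, Benjamini-Hochberg adjusted p = 0.325, edgeR quasi-likelihood test). E2f3, on chromosome 13 from 29906575 to 29986063, ranged from 45.1 to 61.7 normalized CPM in control and from 32.9 to 49.7 in Trpm7 cKO libraries, a log2FC of -0.33 (SE 0.19, adjusted p = 0.151, edgeR). E2f6, the repressor that works with a Polycomb complex, lies on chromosome 12 from 16810963 to 16839742. It ranged from 15.0 to 24.1 normalized CPM in control and from 9.24 to 24.9 in Trpm7 cKO libraries, a log2FC of -0.40 (SE 0.30, adjusted p = 0.294, edgeR).

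Of the pocket protein genes, Rbl1, which encodes p107 and is itself known as an E2F target, fell, and this call was the least stable of the 4. Rbl1, on chromosome 2 from 157145893 to 157204534, had 90.5, 55.8, 89.0, 70.3 and 53.3 normalized CPM in control replicates 1 to 5. In Trpm7 cKO replicates 1 to 5, Rbl1 had 29.6, 27.6, 25.6, 86.2 and 22.1 normalized CPM. In Trpm7 cKO, 4 libraries lay below all control libraries and replicate 4 stood among the control libraries, with 52 counts. The log2FC of Rbl1 was -0.77 (SE 0.31, Benjamini-Hochberg adjusted p = 0.0477, edgeR quasi-likelihood test), and without Trpm7 cKO replicate 4 it was -1.41 (adjusted p = 7.35e-05, edgeR). Leaving out control replicate 1, 3 or 4, or Trpm7 cKO replicate 1, 2, 3 or 5, ended the call, with log2FCs between -0.78 and -0.63 and adjusted p up to 0.121 in edgeR's test.

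Rb1, on chromosome 14 from 73183673 to 73325822, had 58.7, 59.9, 63.3, 47.2 and 59.0 normalized CPM in control and 48.0, 46.0, 21.9, 72.9 and 44.1 in Trpm7 cKO replicates 1 to 5. The genotypes overlapped, and the log2FC of Rb1 was -0.22 (SE 0.22, Benjamini-Hochberg adjusted p = 0.425, edgeR quasi-likelihood test). Rbl2, which encodes p130, the pocket protein known from resting cells, lies on chromosome 8 from 91070057 to 91123844. It had 4, 3, 2, 3 and 1 counts in the control libraries, and 5, 1, 3, 1 and 1 in those of Trpm7 cKO, too few for the filter. A change of Rbl2 was not detectable at this depth, and its 3′ end overlaps Aktip on the opposite strand.

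Trpm7 cKO replicate 4 was the highest of the 5 Trpm7 cKO libraries for 6 of the 9 tested genes (E2f1, E2f4, E2f6, E2f8, Rb1 and Rbl1) and the lowest for 2 (E2f5 and E2f7). Without it, 5 of the 9 genes were lower and 1 was higher in edgeR's test, in a fit that called 2000 of 8488 genes lower (23.6%) and 2094 higher. The additional calls were E2f1, lower with a log2FC of -0.88 (adjusted p = 0.0447, edgeR), and E2f5, higher with 0.81 (adjusted p = 0.0478, edgeR). Without replicates 4 and 5 together (an alternative added once the data had been seen), the numbers were the same, 5 lower and 1 higher. That fit called 2013 of 8780 genes lower (22.9%) and 2065 higher.

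**Figure D2:**
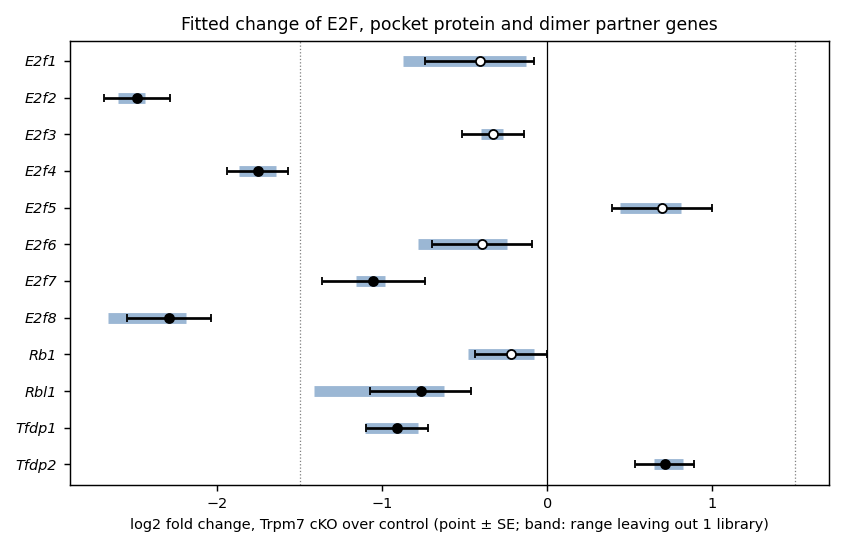
Log2 fold change (horizontal axis, Trpm7 cKO over control) of 9 family genes and of E2f2, Tfdp1 and Tfdp2, with points ± SE, filled where the adjusted p was below 0.05, and bands for the range over fits that each left out 1 library. Dotted lines mark a log2FC of 1.5 in either direction. The bands of E2f4 and E2f8 stay below -1.5, and that of Rbl1 runs from -1.41 to -0.63.

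The family's counts were also shared out differently among its groups. The 10 genes together held 406 to 577 counts in control (median 542) and 39 to 234 in Trpm7 cKO libraries (median 136). E2f1 and E2f3 made up 13.3% to 16.0% of these counts in control and 18.8% to 33.3% in Trpm7 cKO libraries, with no overlap. The 33.3% is from Trpm7 cKO replicate 5, which held 39 counts of the 10 genes. The activator E2f2 is outside the 10 genes, so this share does not describe the activators as a whole. E2f2 had 73 to 101 counts in control and 3 to 12 in Trpm7 cKO libraries. E2f4 and E2f5 made up 35.2% to 40.0% in control and 17.9% to 34.1% in Trpm7 cKO libraries, and E2f7 and E2f8 16.2% to 22.2% and 9.40% to 11.3%, both lower without overlap. The shares of E2f6 and of the pocket protein genes overlapped. The shares of one library add up to the whole, so that a lower share of one group raises the others.

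**Figure D3:**
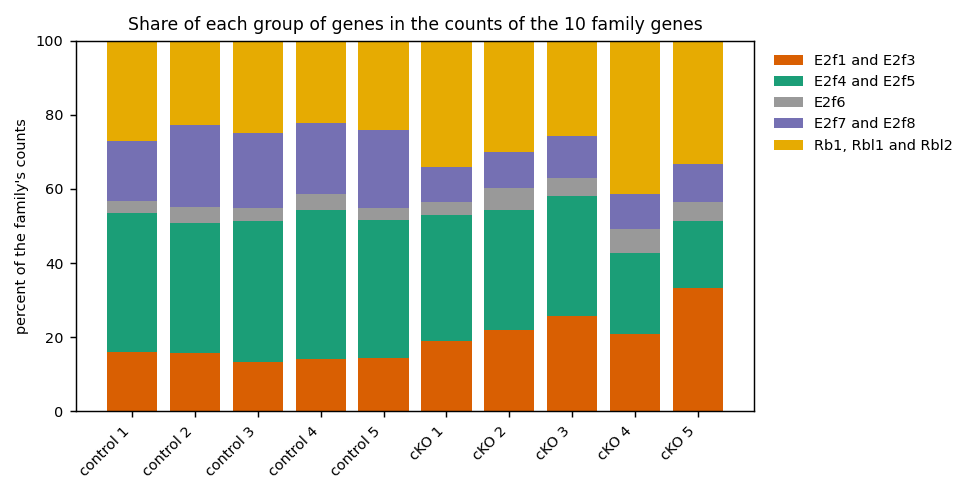
Percent of the counts of the 10 family genes (vertical axis) that fell to each group of genes, stacked for each of the 5 control and 5 Trpm7 cKO libraries. The share of E2f1 and E2f3 is 13.3% to 16.0% in control and 18.8% to 33.3% in Trpm7 cKO libraries, and that of E2f7 and E2f8 is 9.40% to 11.3% in Trpm7 cKO libraries. The activator E2f2 is not among the 10 genes.

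The activator E2f2 and the DP genes were examined beside the family. E2f2, on chromosome 4 from 136172394 to 136196057, had 95.5, 104, 97.6, 93.4 and 84.5 normalized CPM in control and 14.8, 14.7, 18.3, 19.9 and 16.6 in Trpm7 cKO replicates 1 to 5. The genotypes did not overlap, and the Trpm7 cKO libraries, replicate 4 included, lay close together. The log2FC of E2f2 was -2.49 (SE 0.20, Benjamini-Hochberg adjusted p = 1.78e-08, edgeR quasi-likelihood test), a 5.64-fold lower level. The DP partners moved in opposite directions. Tfdp1 had 118, 143, 114, 115 and 124 normalized CPM in control and 66.5, 68.1, 32.9, 89.5 and 49.7 in Trpm7 cKO replicates 1 to 5, without overlap (log2FC -0.91, SE 0.19, adjusted p = 0.000496, edgeR). Tfdp2 rose, with 59.7 to 81.5 normalized CPM in the control libraries and 77.9 to 138 in those of Trpm7 cKO, overlapping through replicate 4 (log2FC 0.71, SE 0.18, adjusted p = 0.00256, edgeR).

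The genes E2F factors are known to switch on at the G1/S transition were a list of 45, of which 39 were tested. Of these, 27 fell in Trpm7 cKO libraries and 0 rose (edgeR's test), which is 69.2% lower where 24.1% of all tested genes were. Which targets passed the filter on low counts through the control libraries alone was not examined. For any such gene, the filter left little room for a higher call. The median log2FC of the 39 genes was -0.85, with 37 below 0, and 16 did not overlap between the genotypes, all in the lower direction, where 17.9% of all tested genes did so. The lowest were Rrm2, a subunit of ribonucleotide reductase (-2.30, SE 0.27), Ccne1, cyclin E1 (-2.20, SE 0.34), and Dut, the dUTPase that keeps uracil out of DNA (-1.94, SE 0.20). Rrm2 ranged from 864 to 1436 normalized CPM in control and from 110 to 391 in Trpm7 cKO libraries. The least changed of the 27 were Mcm7, a subunit of the replicative helicase (-0.46, SE 0.17), the DNA ligase gene Lig1 (-0.55, SE 0.21) and Tipin, a gene of replication fork protection (-0.58, SE 0.15). Of the last 500 transcript bases of Mcm7, 58.4% occur in another transcript, its 3′ end overlaps Cops6, and shorter stretches are shared in Tipin (16.8%) and Rrm2 (7%). The E2F letters stood in the promoters of 7 of the 21 lower targets with a promoter entry and of 7 of the 10 other tested targets with one. Over all targets with an entry, 15 of 34 genes held them (44.1%), against 704 of 27025 genes with a promoter in the table.

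**Figure D4:**
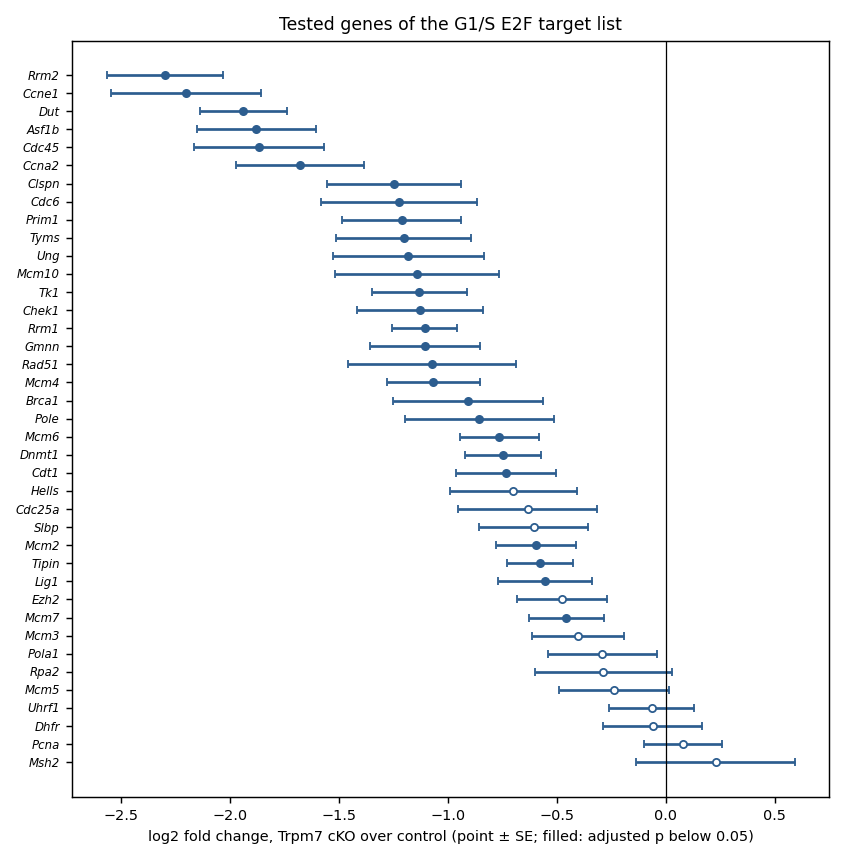
Log2 fold change ± SE (horizontal axis, Trpm7 cKO over control, 5 libraries each) of the 39 tested genes known as E2F targets, ordered by value, with filled points for an adjusted p below 0.05. The values run from -2.30 for Rrm2, and 37 of the 39 lie below 0.

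The kinases and inhibitors that govern the release of E2F at the G1 switch were a list of 15, of which 11 were tested. Of the 11, 6 were lower (54.5%) and 0 were higher (edgeR's test), beside 24.1% and 24.6% of all tested genes. The limit of the filter given for the targets holds for this list too. Ccne1, listed above, and Cdk4, the cyclin D kinase (log2FC -1.53, SE 0.18), fell furthest, followed by Cdk2, the cyclin E kinase (-0.67, SE 0.18). Reads of Cdk4 could be shared, since the opposite-strand gene Tspan31 overlaps its 3′ end and 15.4% of its last 500 bases occur in other transcripts. The inhibitors Cdkn1a, which encodes p21 (-0.65, SE 0.14), and Cdkn2c, which encodes p18 (-0.39, SE 0.15), fell too, as did the kinase gene Cdk6 (-0.47, SE 0.17).

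The MuvB genes code for the core that joins E2f4 and a pocket protein in the DREAM complex, and for its later partners. Of the 7 genes listed, 4 were tested, and 1 fell (25%, beside 24.1% of all tested genes) and 0 rose. This was Rbbp4, which fell by 0.35 on the log2 scale (SE 0.13), with no overlap between the genotypes. Such a lack of overlap held for 17.9% of all tested genes in the lower direction. Of the last bases of Rbbp4, 19.6% are shared with other transcripts. Lin9 (-0.42, SE 0.28), Foxm1 (-0.31, SE 0.30) and Lin54 (-0.17, SE 0.33) did not pass edgeR's test. Lin37, Lin52 and Mybl2 had too few counts to be tested, Mybl2 with 26 counts over the 5 control and 3 over the 5 Trpm7 cKO libraries.

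Of the complex around E2f6, 6 genes were tested, of which 2 rose (33.3%, beside 24.6% of all tested genes) and 0 fell. The 2 were Mga, the large DNA-binding subunit (log2FC 1.19, SE 0.18), and Cbx3, a heterochromatin protein (0.75, SE 0.30, adjusted p = 0.0482 in edgeR's test). Yaf2 (-0.31), Pcgf6 (-0.19), Max (-0.07) and Rnf2 (0.29) did not pass, and L3mbtl2, Ring1 and Rybp were not tested. All 9 genes listed as corepressors of the pocket proteins were tested. Of these, 2 fell (22.2%, beside 24.1% of all tested genes) and 1 rose (11.1%, beside 24.6%). Suv39h1, a histone H3K9 methyltransferase (-1.95, SE 0.34), and the histone deacetylase gene Hdac2 (-1.40, SE 0.17) fell without overlap between the genotypes. That held for 17.9% of all tested genes in the lower direction. Arid4a, which encodes a pocket protein binder (0.90, SE 0.25), rose. Sin3a (-0.33), Sin3b (-0.32), Rbbp7 (-0.26), Hdac1 (0.04), Kdm5a (0.42) and Arid4b (0.49) did not pass.

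The genes with the pattern most like that of E2f4, which had the smallest adjusted p of the family, were Cct6a, Snhg4 and Sdhaf4, with Pearson's r of 0.99 each over the log2 CPM of the 10 libraries. This is a description, since the libraries share depth and genotype, and these 3 genes fell as well (log2FCs -1.01, -0.95 and -2.14).

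Trpm7 cKO replicate 4, the highest of its genotype for Rbl1, E2f1 and Rb1, had the highest leukocyte and the lowest muscle stem cell sum of all libraries. Trpm7 cKO replicate 5, with a leukocyte sum of 6434 normalized CPM beside 6893 in replicate 4, was the lowest of its genotype for Rbl1 (22.1 CPM), E2f4 (22.1 CPM) and E2f8 (5.52 CPM). These values of replicate 5, the smallest library, rest on 4, 4 and 1 counts. The same replicate was the highest of its genotype for E2f3 (49.7 CPM, from 9 counts) and E2f7 (16.6 CPM, from 3 counts). Trpm7 cKO replicate 2 had the lowest leukocyte sum of its genotype. In it, E2f8 (14.7 CPM), E2f4 (64.4 CPM), E2f7 (9.20 CPM), Rbl1 (27.6 CPM) and E2f2 (14.7 CPM) were each below every control library. So were E2f1 (12.9 CPM), E2f3 (42.3 CPM), E2f6 (14.7 CPM) and Rb1 (46.0 CPM), which did not pass the test. Low values in this library were therefore not particular to the genes that fell. The leukocyte sum of Trpm7 cKO replicate 2, 1572 normalized CPM, was still above the control maximum of 686, and its erythroid sum of 1007 above 178. These values are a description, and the part of leukocyte RNA in them was not tested.

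**Figure D5:**
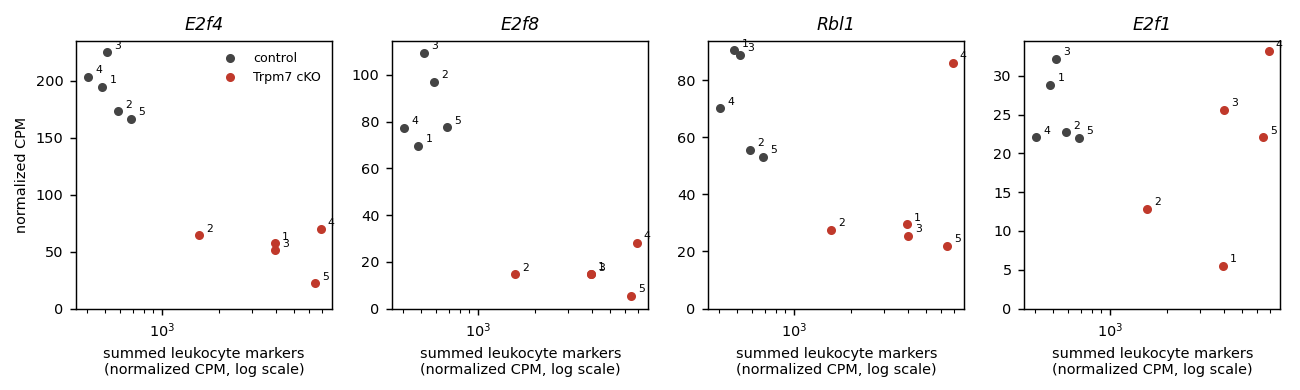
Normalized CPM of E2f4, E2f8, Rbl1 and E2f1 (vertical axes, from 0) against the summed leukocyte markers (horizontal axis, normalized CPM on a log scale), with each point 1 library numbered by its replicate. Control libraries lie at 406 to 686 and Trpm7 cKO libraries at 1572 to 6893 on the horizontal axis, with no overlap.

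With the leukocyte markers' mean log2 CPM added as a covariate, E2f8 kept its call (log2FC -2.97, adjusted p = 0.0273) and so did E2f2 (-2.87, adjusted p = 0.00846), in edgeR's test. E2f4 (-1.22, adjusted p = 0.203), E2f7 (-0.91, adjusted p = 0.682) and Rbl1 (-1.95, adjusted p = 0.261) lost theirs in the same edgeR fit. Under this covariate, which does not overlap between the genotypes, 1.56% of all tested genes were lower, and 0 of the 39 E2F targets were.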

How the data were processed

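RNA-seq was measured in 5 control and 5 Trpm7 cKO libraries made by CEL-Seq2, which reads the 3′ end of transcripts with unique molecular identifiers (UMIs). Per the submitters' processing notes, the authors used UMI-tools 1.1.4, Trim Galore 0.6.10, HISAT2 2.2.1, featureCounts 2.0.6 and DESeq2 1.30.1 with GRCm38. The authors deposited whole-number counts per gene without normalization, and the annotation and strandedness used for counting are not given in the sources used here.

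The analysis used edgeR 4.0.16 under R 4.3.3 (filterByExpr with a minimum count of 10 and a minimum total of 15, TMM factors, robust quasi-likelihood fit, genotype as the only term), with log2 CPM at a prior count of 2. Of 24620 entries, 12 were further lines of a symbol, and the line with the larger total was kept. Of the symbols, 21914 had a count. Single values were compared by exact permutation tests over 252 divisions, two-sided. A count of 3 in a library was taken as the floor, which covers counting error only.

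The genes named are all 10 members, every gene of the lists of 9 or fewer, the 3 lowest and 3 highest called genes of longer lists, and the 3 genes most correlated with the most strongly called member. The members and lists were chosen with earlier results of these data known. The tests were tested on simulated counts. The alternatives were DESeq2 1.42.0, limma-voom from limma 3.58.1, other scalings, filters and thresholds, thinned counts, a replicate block, covariates, a library name suffix as a term and libraries left out or summed. Within each genotype, all pairs of libraries differed beyond counting noise. Gene positions came from GENCODE M21 and promoters from RefSeq (GRCm38.p6). Shared 3′ sequence was counted in matches of 31 bases.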

Additional observations from a re-analysis of the deposited data

Results flagged for a closer look

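Among the family genes, in Trpm7 cKO replicate 4 Rbl1 stood at 86.2 normalized CPM, apart from the other 4 Trpm7 cKO libraries at 22.1 to 29.6. Control replicate 4 stood at 47.2 normalized CPM for Rb1, below the other control libraries at 58.7 to 63.3. Each was set apart because its gap to the nearest library took up more of the range of its group than Dixon's 95% limit allows, and chance marks about 1 in 20 groups, with 30 examined. Trpm7 cKO replicate 4 also had the highest summed leukocyte markers of the 10 libraries, 6893 normalized CPM, and their part in its Rbl1 level was not tested. Control replicate 4 had the lowest, 406 normalized CPM.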

How the results depend on the processing

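E2f8 kept its direction and its call in all 23 settings other than the one reported, and E2f4 in 22 of 23, the exception being the leukocyte covariate. E2f7 was called in 15 of the 17 settings that could fit it and Rbl1 in 9 of 23. The filter removed E2f7 without control replicate 1, 2, 4 or 5, with at least 30 counts in 5 libraries and with thinned counts. The number of lower family genes, 4 as reported, was 2 when scaled on the muscle stem cell markers (adjusted p of E2f7 = 0.0528), 2 with at least 30 counts in 5 libraries, 2 with thinned counts, 1 with the leukocyte covariate and 2 beyond a log2 fold change of 1.5, and between 2 and 5 without 1 library. It was 2 without control replicate 1 or control replicate 4, where 7 and 6 family genes passed the filter. The number of higher family genes, 0 as reported, was 1 with total counts alone, 1 with muscle scaling, 1 without replicates 4 and 5 of Trpm7 cKO and between 0 and 1 without 1 library. Of the E2F targets, 27 lower as reported, 15 were lower with muscle scaling, 16 with the stricter filter, which left 26, 11 with thinned counts, which left 20, 0 with the leukocyte covariate and 6 beyond the fold threshold. Of the partner, complex and G1 switch genes, 11 lower as reported, 7 were lower with muscle scaling, 1 with the leukocyte covariate and 4 beyond the fold threshold. The 4 higher ones became 7 with total counts, 8 with muscle scaling, 0 with the leukocyte covariate, 2 without replicates 4 and 5 of Trpm7 cKO and 0 beyond the fold threshold. Of all tested genes, 24.1% were lower as reported, 12.3% with muscle scaling, 26.3% with the stricter filter and 22.7% with thinned counts. That share was 1.56% with the leukocyte covariate, 3.53% beyond the fold threshold and 20.5% to 23.6% without 1 library. Higher were 1908 of 7753 genes as reported, 2164 with total counts, 2346 with muscle scaling and 350 with the leukocyte covariate. Rb1 turned to log2 fold changes of 0.036 with muscle scaling and 0.050 with thinned counts. The causes were not tested, other than the fewer genes tested. Muscle scaling shifted the overall median log2 fold change to 0.23 and the share of higher calls from 50.6% to 71.1%, and the leukocyte covariate moved that share to 74.3%. The replicate numbers did not pair the libraries (correlations of same-numbered deviations from -0.12 to 0.18, with 1 of 5 best with its own number). With the replicate block, 4 family genes, 26 targets and 9 of the other genes were lower, 0, 0 and 5 were higher, and E2f4 had a log2 fold change of -1.80. In that fit, 22.7% of all tested genes were lower and 1814 of 7753 were higher. Low depth limits Rbl2, E2f6, E2f7, E2f5 and E2f1. A Trpm7 cKO library held as few as 2 counts of E2f6 and 3 each of E2f7, E2f5 and E2f1. E2f8 had 1 count in Trpm7 cKO replicate 5, but 67 to 102 in the control libraries. For Rbl2, E2f6, E2f5 and E2f1, a call that was missed does not show an unchanged level.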
